A study of Mus musculus with 12 samples.

Results

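A set of 7 genes for making or packing the transmitters glutamate and GABA was examined, taken by name from 17492 protein-coding genes that have a strand in the reference used. On the glutamate side these were Slc17a6, Slc17a7 and Slc17a8, which encode the vesicular glutamate transporters VGLUT2, VGLUT1 and VGLUT3, and Slc30a3, which encodes ZnT3, the transporter that loads zinc into glutamatergic vesicles. On the GABA side were Gad1 and Gad2, which encode the enzymes GAD67 and GAD65 that make GABA from glutamate, and Slc32a1, which encodes VGAT, the vesicular transporter of GABA and glycine. The glutamate side thus has 4 genes and the GABA side 3.

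A neuron packs its transmitter into vesicles with a transporter, and the transporter it makes decides what it releases. In neocortex most neurons are glutamatergic and use mainly VGLUT1, whereas VGLUT2 is best known from thalamus and other subcortical regions and VGLUT3 from small populations. Cortical interneurons use GAD67, GAD65 and VGAT.

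The measurements were lists of ATAC-seq peaks, regions where a transposase cut the DNA of sorted cells more often than their surroundings. The cells carried both Arc, the product of an activity-induced gene, and NeuN, a neuronal protein, and came from the infralimbic prefrontal cortex of male C57BL/6 mice aged 10 to 12 weeks. All mice of both groups had been fear-conditioned with 3 tone and foot-shock pairings. After 1 day the extinction (EXT) group was given 60 tones in context B, and the retention control (RC) group was kept in that context for as long with no tone. Each library pooled 5 mice and used 50000 cells. The lists of EXT replicate 1, EXT replicate 2 and RC replicate 3 held 80735, 123375 and 97961 peaks from 65.0 M, 57.7 M and 73.8 M tags. Lists of RC replicates 1 and 2, as held here, end on chromosome 1 and reach none of the 7 genes, which lie on chromosomes 2, 5, 7 and 10. The groups were therefore 2 EXT libraries and 1 RC library, and no test between them was possible. A missing peak means that no peak was called in that library, not that the DNA was closed.

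All 4 glutamate-side genes had a called peak within 1 kb of a transcription start listed by RefSeq in every complete list, and none of the 3 GABA-side genes had one in any. Of all protein-coding genes, 53.6% had such a peak in EXT replicate 1, 60.1% in EXT replicate 2 and 55.4% in RC replicate 3, with 49.9% in all 3 lists and 37.5% in none. This way of counting was added after the data were seen. By the planned rule, at the 5′ end of the span, 2 of 4 glutamate-side genes were called in each list. On the GABA side the planned rule gave 0 of 3 in EXT replicate 1, 0 in EXT replicate 2 and 1 in RC replicate 3. With 4 genes and 3 genes these counts are a description, with no test. Since cells were pooled, a smaller number of cells of a type and weaker cutting per cell cannot be told apart.

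The count depends on what is called a start. Counted within 1 kb of the 5′ end of the whole annotated span, the rule set for the counts here, 2 members had a peak in EXT replicate 1, 2 in EXT replicate 2 and 3 in RC replicate 3. The same rule gave 50.0%, 56.4% and 52.0% of all protein-coding genes, with 46.3% in all 3 lists and 40.8% in none. By this rule Slc17a6 and Slc17a7 were called in all 3 lists, and Gad1 only in RC replicate 3. Slc17a8 and Slc30a3 were called only at a second, internal start, which lies 21434 bp and 14717 bp into the gene. Genes with 2 listed starts had a peak in all 3 lists in 66.7% of cases and genes with 1 start in 46.6%. Slc17a6, Slc17a8 and Slc30a3 have 2 listed starts, and Slc17a7 and the GABA-side genes have 1. The Gad1, Gad2 and Slc32a1 starts lie 826, 1312 and 3498 bp inside their spans.

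**Figure D1:**
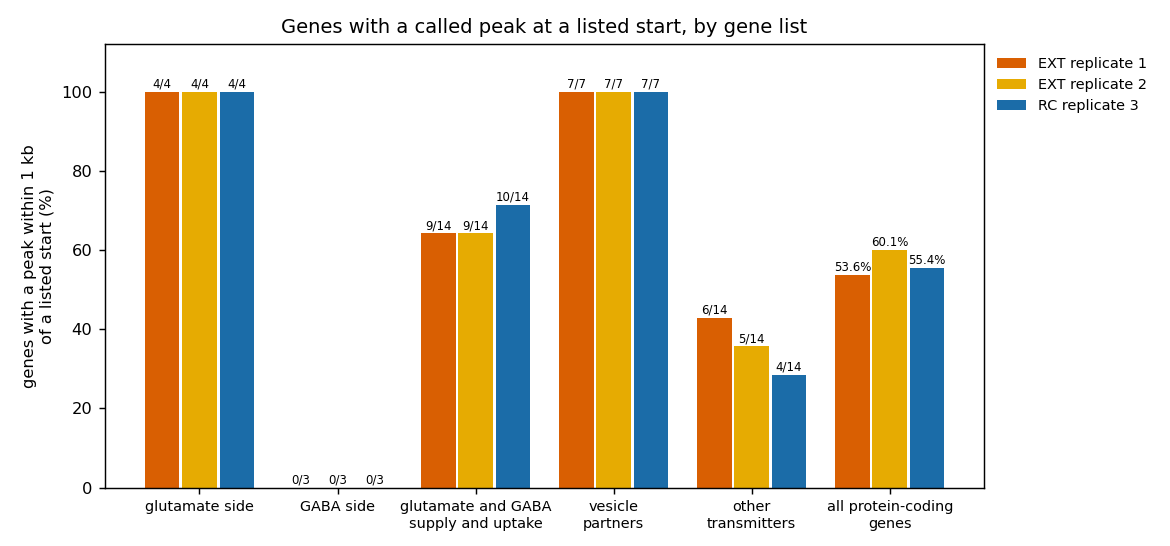
Share of genes (%, vertical axis from 0) with a called peak within 1 kb of any listed start, for the glutamate side, the GABA side, 3 comparison lists and all protein-coding genes, with bars for EXT replicate 1, EXT replicate 2 and RC replicate 3; numbers above bars are genes called over genes with a listed start. The glutamate side stands at 4 of 4 and the GABA side at 0 of 3 in every list, beside 53.6%, 60.1% and 55.4% of all genes. Counting at any listed start was added after the data were seen.

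The promoter sequences below, 250 bases before to 50 after a start, let the called and uncalled starts be compared. They are from RefSeq (GRCm38.p6, the build mm10), 5′ to 3′ on the gene's strand. Capitals mark bases inside a called peak of at least 1 of the 3 lists; the 3 glutamate-side promoters shown are those that peaks overlap, and the 3 GABA-side promoters are in lower case throughout because no peak touches them.
Slc17a7 (chr7:45163671-45163970, plus strand): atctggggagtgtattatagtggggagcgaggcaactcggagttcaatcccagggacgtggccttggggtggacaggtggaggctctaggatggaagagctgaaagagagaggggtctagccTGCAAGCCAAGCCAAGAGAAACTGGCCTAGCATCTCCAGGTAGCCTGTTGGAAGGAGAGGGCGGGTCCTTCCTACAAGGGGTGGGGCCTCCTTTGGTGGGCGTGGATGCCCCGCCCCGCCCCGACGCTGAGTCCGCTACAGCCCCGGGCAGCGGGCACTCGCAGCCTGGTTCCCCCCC
Slc17a6 (chr7:51621580-51621879, plus strand): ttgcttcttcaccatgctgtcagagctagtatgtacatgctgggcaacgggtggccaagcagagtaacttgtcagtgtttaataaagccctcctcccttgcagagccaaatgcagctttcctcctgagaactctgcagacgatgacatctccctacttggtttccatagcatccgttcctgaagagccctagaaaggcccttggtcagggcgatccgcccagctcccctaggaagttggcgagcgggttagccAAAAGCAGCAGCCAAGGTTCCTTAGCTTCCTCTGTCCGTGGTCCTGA
Slc30a3 (chr5:31093478-31093777, minus strand): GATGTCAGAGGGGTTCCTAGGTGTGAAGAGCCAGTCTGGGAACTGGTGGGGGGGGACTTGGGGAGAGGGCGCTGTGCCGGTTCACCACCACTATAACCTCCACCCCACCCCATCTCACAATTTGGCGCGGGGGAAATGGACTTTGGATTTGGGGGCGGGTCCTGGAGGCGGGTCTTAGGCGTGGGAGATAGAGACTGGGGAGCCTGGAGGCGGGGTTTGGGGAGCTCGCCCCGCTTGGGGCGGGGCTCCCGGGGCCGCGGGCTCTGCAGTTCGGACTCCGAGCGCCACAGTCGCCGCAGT
Slc32a1 (chr2:158610508-158610807, plus strand): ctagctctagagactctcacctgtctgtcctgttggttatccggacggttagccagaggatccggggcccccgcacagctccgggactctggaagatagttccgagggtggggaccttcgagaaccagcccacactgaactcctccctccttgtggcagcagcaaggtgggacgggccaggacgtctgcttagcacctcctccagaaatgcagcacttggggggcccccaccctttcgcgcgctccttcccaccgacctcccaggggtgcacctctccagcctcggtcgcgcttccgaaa
Gad1 (chr2:70561879-70562178, plus strand): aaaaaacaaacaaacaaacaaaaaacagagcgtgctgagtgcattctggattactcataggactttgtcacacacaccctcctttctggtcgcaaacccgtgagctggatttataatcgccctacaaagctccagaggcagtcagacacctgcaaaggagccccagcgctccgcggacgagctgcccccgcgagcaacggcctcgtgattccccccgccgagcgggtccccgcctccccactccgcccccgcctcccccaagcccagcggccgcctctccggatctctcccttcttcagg
Gad2 (chr2:22622077-22622376, plus strand): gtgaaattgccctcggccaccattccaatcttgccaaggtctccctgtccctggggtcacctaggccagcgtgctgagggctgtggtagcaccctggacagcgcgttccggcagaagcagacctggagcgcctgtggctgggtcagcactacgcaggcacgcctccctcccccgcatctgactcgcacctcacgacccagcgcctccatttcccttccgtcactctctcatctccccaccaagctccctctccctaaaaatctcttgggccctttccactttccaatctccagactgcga

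In Slc17a7 the peak covered 61 bases of the promoter in EXT replicate 1, 178 in EXT replicate 2 and 44 in RC replicate 3. In Slc17a6 the same 47 bases were covered in each list. At the internal start of Slc30a3 the peak of EXT replicate 2 covered all 300 bases and that of RC replicate 3 covered 37, while the EXT replicate 1 peak lay just downstream. The peaks at the internal Slc17a8 start lay downstream of the 300-base promoter.

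The uncalled GABA-side promoters were not poor in CG dinucleotides. Their observed over expected CG ratio was 0.849 in Gad1, 0.574 in Slc32a1 and 0.543 in Gad2. At called starts it was 0.438 in Slc17a7, 0.373 in Slc17a6, 0.610 in Slc30a3 and 0.395 in Slc17a8. Uncalled glutamate-side starts had 0.264 (second Slc17a6 start), 0.279 (5′ Slc17a8 start) and 0.703 (5′ Slc30a3 start), so called and uncalled starts overlapped. The median over 32817 promoters was 0.383, with quartiles at 0.176 and 0.750. The GC box GGGCGG, searched on both strands, occurred 3 times in the Slc17a7 promoter, 2 times at the internal Slc30a3 start and 1 time each at the first Slc17a6 start and in Gad1; 35.6% of all promoters held it. The TATA box letters TATAAA were found in Gad1 and at the 5′ start of Slc30a3, as in 13.6% of promoters. No member promoter held the cyclic AMP response element TGACGTCA (1.79% of promoters), the AP-1 letters TGANTCA (7.81%) or the E-box CAGCTG (16.3%). The E-box CAGATG, held by 17.2% of promoters, was found in Gad2, at the second Slc17a6 start and at the internal Slc17a8 start, and the homeodomain letters TAATTA, held by 5.30%, at the last 2 of these. No motif in this set contains another. These are letter matches, not binding sites.

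**Figure D2:**
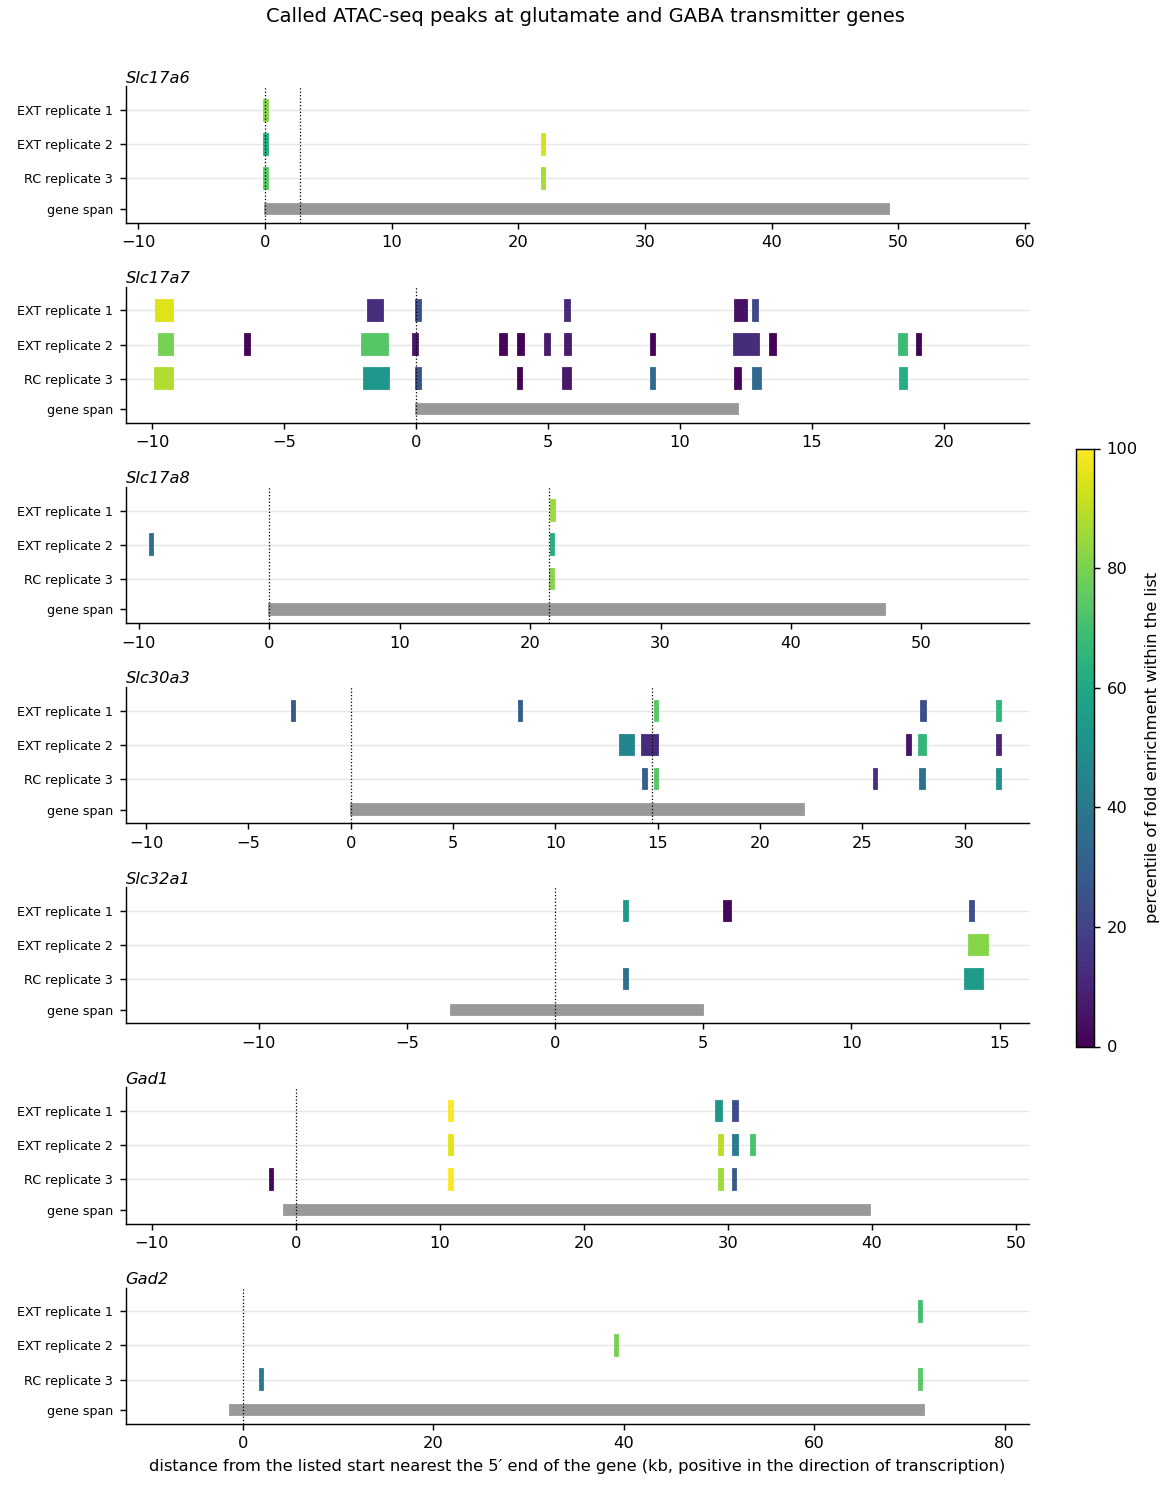
Called peaks at the 7 genes, 1 panel per gene, by distance (kb) from the listed start nearest the 5′ end, positive in the direction of transcription; rows are EXT replicate 1, EXT replicate 2 and RC replicate 3, the grey bar is the annotated span, dotted lines are listed starts, colour is the percentile of fold enrichment within the list, and peaks too narrow to see are widened. Peaks sit at a dotted line for Slc17a6, Slc17a7, Slc17a8 and Slc30a3 and at none for Slc32a1, Gad1 and Gad2.

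Slc17a7, the gene of the main cortical glutamate transporter (chromosome 7, 45163921 to 45176139), had the most peaks of the 7. Its span and the 10 kb on each side held 6 peaks in EXT replicate 1, 13 in EXT replicate 2 and 9 in RC replicate 3. Per 10 kb of window these were 1.86, 4.03 and 2.79 peaks, against medians of 0.489, 0.751 and 0.606 over all protein-coding genes. In those lists 97.7%, 99.98% and 99.7% of genes had fewer peaks per length. Peaks covered 7.01%, 14.5% and 9.91% of the window. These measures count weak and strong peaks alike, and by fold most of the peaks were weak. The median fold in the window was 2.84 in EXT replicate 1, 2.54 in EXT replicate 2 and 3.23 in RC replicate 3. The medians of the whole lists were 3.70, 4.41 and 3.87. Of the peaks in the window, 3, 6 and 5 lay within 1 kb of an annotated end of another gene.

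The peak at the Slc17a7 start was 191 bp wide in EXT replicate 1 (45163910 to 45164100), 214 bp in EXT replicate 2 (45163793 to 45164006) and 174 bp in RC replicate 3 (45163927 to 45164100). Its fold enrichment, the authors' ratio of tags at the summit to the local background, was 3.01, 2.54 and 3.00. These folds ranked 60738 of 80735, 116112 of 123375 and 72818 of 97961 in their own lists, or at the 24.8th, 5.89th and 25.7th percentile. The start of the cortex's main glutamate transporter was thus among the weaker peaks by fold in each library.

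By tags at the summit the order turned. The Slc17a7 start peak had pileups of 63, 86 and 71 tags in EXT replicate 1, EXT replicate 2 and RC replicate 3, with percentiles of 89.5, 90.1 and 88.7 in their lists. The local background that the fold divides by was 20.2, 33.2 and 23.0 tags, 3.88, 7.18 and 3.88 times the genome background of the same library. The header sets the range for this background at 10000 bp. The median peak of the 3 lists had a ratio of 1.29, 1.36 and 1.27, and 1 peak in 10 exceeded 2.43, 3.22 and 2.56. The Slc17a7 peaks lay in a stretch of raised tag density, highest in EXT replicate 2. The ranks by fold and by pileup answer different questions, and which of them is the better measure of openness was not tested.

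**Figure D3:**
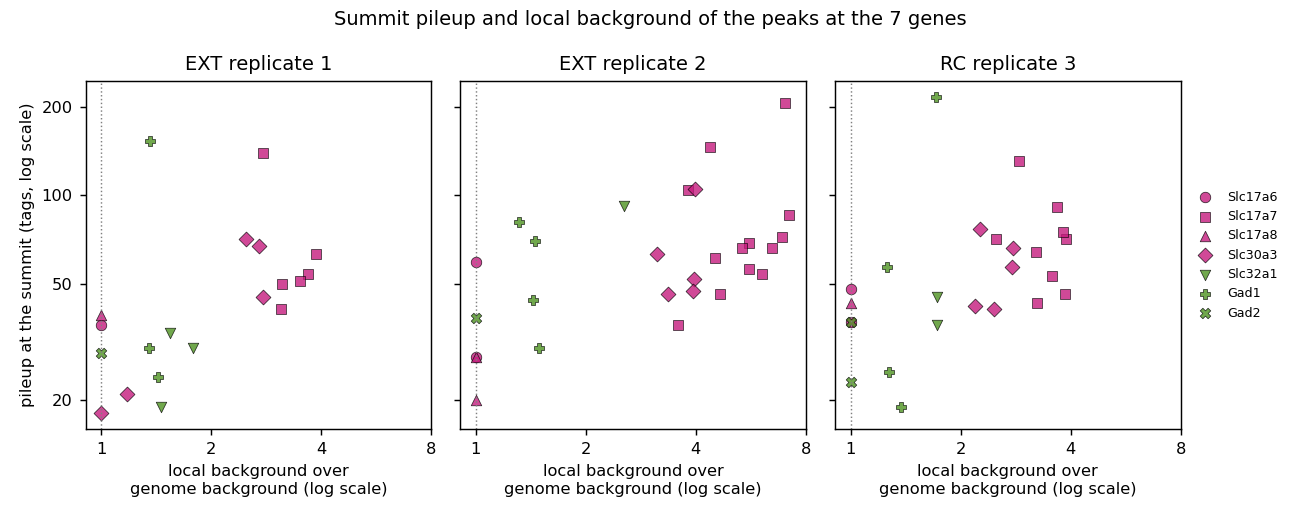
Pileup at the summit (tags, log scale) against local background divided by the genome background of the same library (log scale, dotted line at 1) for every called peak at the 7 genes, in EXT replicate 1, EXT replicate 2 and RC replicate 3; magenta marks are glutamate-side and green marks GABA-side genes. Slc17a7 peaks lie between 2.77 and 3.88, between 3.57 and 7.18 and between 2.50 and 3.88 on the horizontal axis, while all Slc17a6, Slc17a8 and Gad2 peaks lie on the dotted line.

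A second, wider Slc17a7 peak lay just beyond the 1 kb window upstream. It measured 557 bp in EXT replicate 1, 959 bp in EXT replicate 2 and 954 bp in RC replicate 3, with summits at -1492, -1571 and -1570 bp from the start and folds of 2.73, 6.21 and 4.03. Its percentiles were 12.6, 73.6 and 53.1, so the RC value fell between the EXT values. A peak inside the gene, about the same distance from the start in each list (5774, 5780 and 5786 bp), had folds of 2.70, 2.60 and 2.44. The highest fold in the window, 9.14 in EXT replicate 1, 6.91 in EXT replicate 2 and 7.28 in RC replicate 3, belonged to a peak at -9320, -9340 and -9334 bp, at an annotated end of the neighbouring gene Aldh16a1. Peaks near the 3′ end of Slc17a7 also lay within 1 kb of Gfy, so flanking peaks cannot be given to Slc17a7 alone.

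Slc17a6, which encodes VGLUT2 (chromosome 7, 51621830 to 51671126), had a single peak at its 5′ start with the same bounds, 51621833 to 51621993, in all 3 lists. Folds were 5.95 in EXT replicate 1, 5.16 in EXT replicate 2 and 5.49 in RC replicate 3, from 36, 28 and 37 tags. Percentiles were 81.4, 62.4 and 74.3 by fold and 60.6, 35.3 and 50.9 by pileup. Its fold rank was thus above that of the Slc17a7 start in every list while its pileup rank was below. The lncRNA gene Gm33136 spans the same start, so the peak belongs to both annotations. An intragenic peak (51643754 to 51643913) was called with identical bounds in EXT replicate 2 and RC replicate 3, with folds of 10.7 and 7.08, and was not called in EXT replicate 1. No flanking peak was called at Slc17a6 in any of the 3 lists.

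Slc17a8, which encodes VGLUT3 (chromosome 10, 89574020 to 89621249, minus strand), had its only shared peak just inside the internal start at 89599815. Widths were 309 bp in EXT replicate 1, 229 bp in EXT replicate 2 and 160 bp in RC replicate 3, and folds were 6.44, 5.16 and 6.36. The summits lay 227, 276 and 179 bp past that start. Their percentiles by fold were 84.9, 62.4 and 82.2. The 5′ start of the span, 21434 bp away, had no peak within 1 kb. A 150 bp peak upstream was called in EXT replicate 2, with a fold of 3.73.

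Slc30a3, the zinc transporter gene (chromosome 5, 31086106 to 31108244, minus strand), was called around its internal start at 31093527 and not at its 5′ end. EXT replicate 1 and RC replicate 3 had the same 161 bp peak, 31093207 to 31093367, with folds of 5.15 and 5.41. EXT replicate 2 had wider and weaker peaks there, of 787 bp with a fold of 2.84 and of 666 bp with a fold of 4.13, and RC replicate 3 also had a 198 bp peak with a fold of 3.08. By shape EXT replicate 1 thus stood nearer to RC replicate 3 than to EXT replicate 2. The region was nonetheless called in each list. Its local background was 2.49, 3.36 and 2.26 times the genome background in the peak nearest the start, raised as at Slc17a7 though less. Downstream, a peak in the neighbour Cad (31076486 to 31076645 in EXT replicate 1 and RC replicate 3) had folds of 4.51, 2.75 and 3.83 in EXT replicate 1, EXT replicate 2 and RC replicate 3. A peak at an annotated boundary of the lncRNA gene Gm38601 had folds of 2.98, 5.45 and 3.33.

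On the GABA side the leading peak was inside Gad1. Gad1 (chromosome 2, 70561303 to 70602014) held a 163 bp peak at 70572808 to 70572970, with the same bounds in every list and summits 10827, 10768 and 10698 bp past the listed start. Its fold was 19.1 in EXT replicate 1, 11.6 in EXT replicate 2 and 19.5 in RC replicate 3, from 153, 81 and 217 tags. It ranked 152 of 80735, 5716 of 123375 and 169 of 97961, or at the 99.8th, 95.4th and 99.8th percentile. This was the highest fold of any peak at the 7 genes in each list. By pileup it stood at the 99.6th, 88.6th and 99.6th percentile, so in EXT replicate 1 and RC replicate 3 both measures placed it near the top.

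Another 3 Gad1 regions lay near the 3′ part of the gene. The first, 161 bp at 70591568 to 70591728 in EXT replicate 2 and RC replicate 3 and 412 bp in EXT replicate 1, had folds of 3.84 in EXT replicate 1, 9.20 in EXT replicate 2 and 6.87 in RC replicate 3. The second had folds of 2.96, 3.93 and 3.04, and a last one, with a fold of 5.89, was called in EXT replicate 2 alone. The 5′ peak of Gad1 in RC replicate 3 (70560333 to 70560517) had a fold of 2.19 from 19 tags, at the 1.69th percentile, and a −log10 q of 1.51. It was not kept at a −log10 q of at least 5, within 500 bp of the span end or in lists of equal length. Its summit was at -1701 bp from the listed start and outside the annotated span. The lncRNA gene Gad1os overlaps the Gad1 start.

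Gad2 (chromosome 2, 22621015 to 22693877) had no region called in all 3 lists. A 160 bp peak close to its 3′ end (22693443 to 22693602) had folds of 4.83 in EXT replicate 1 and 5.49 in RC replicate 3 and was not called in EXT replicate 2. EXT replicate 2 instead had a 161 bp peak in mid gene with a fold of 6.93, and RC replicate 3 a 150 bp peak 1917 bp past the start with a fold of 3.47. Gad2 had 0.108, 0.108 and 0.215 peaks per 10 kb, the fewest of the 7 genes in both EXT lists. In RC replicate 3 Slc17a8 had fewer, at 0.149. In EXT replicate 1, 25.2% of protein-coding genes had fewer peaks per length than Gad2. The share was 20.4% in EXT replicate 2 and 26.97% in RC replicate 3. In the same order, the shares were 26.5%, 26.4% and 30.7% for Slc17a6 and 26.7%, 26.8% and 24.4% for Slc17a8. A low number of peaks per length was thus not particular to the GABA side.

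Slc32a1 (chromosome 2, 158607260 to 158615747), which encodes VGAT, had a 150 bp intragenic peak (158613079 to 158613228) with folds of 3.88 in EXT replicate 1 and 3.29 in RC replicate 3, and none in EXT replicate 2. The strongest peak in its window in EXT replicate 2 and RC replicate 3, with folds of 7.31 and 4.11, lay downstream. It was at the annotated boundary of the neighbour Actr5 that is nearer to Slc32a1, and there the EXT replicate 1 peak had a fold of 3.01. Apart from that neighbour, EXT replicate 2 had no peak at Slc32a1.

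**Figure D4:**
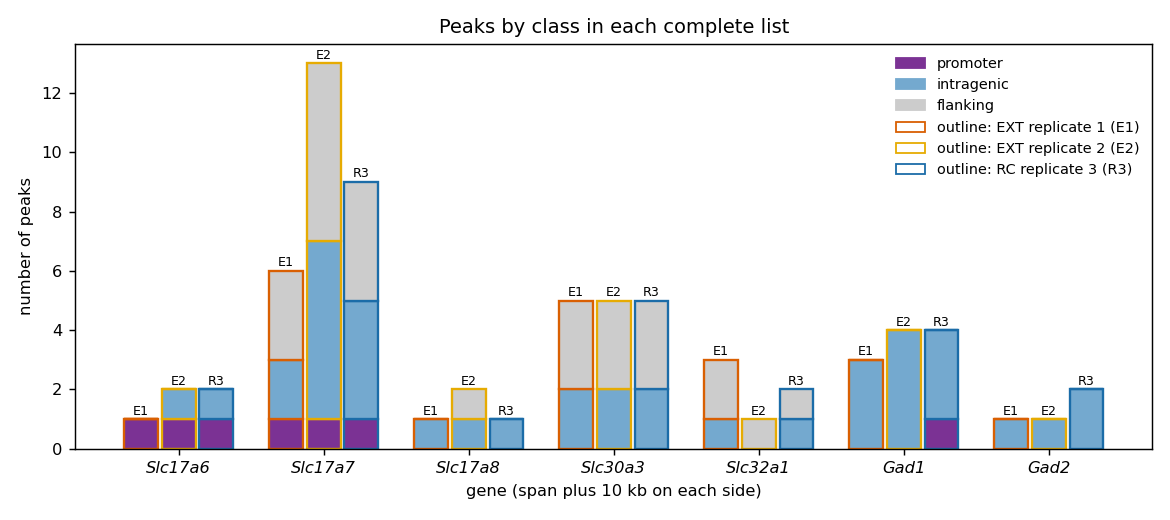
Number of called peaks (vertical axis from 0) in the span plus 10 kb on each side of each gene, split into promoter (within 1 kb of the 5′ end of the span), intragenic and flanking peaks, for EXT replicate 1 (E1), EXT replicate 2 (E2) and RC replicate 3 (R3). Slc17a7 stands highest at 6, 13 and 9 peaks, and Slc30a3 has 5 in each list.

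Over the 7 windows together, EXT replicate 1 had 20 peaks, EXT replicate 2 had 28 and RC replicate 3 had 25. The EXT libraries averaged 24.0 ± 5.66 peaks (SD, n = 2), a difference of -1 from the RC library, smaller than the spread between the EXT libraries. The difference was 3 without EXT replicate 1 and -5 without EXT replicate 2. The whole lists run in the same order, with 80735, 123375 and 97961 peaks. In EXT replicate 1, 2 peaks were promoter, 10 intragenic and 8 flanking. In EXT replicate 2 the classes held 2, 15 and 11 peaks, and in RC replicate 3 they held 3, 14 and 8. All 7 genes had a peak in their window in each list, as had 76.1%, 80.4% and 77.8% of protein-coding genes.

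Merging overlapping peaks of the 3 lists gave 36 regions at the 7 genes. All 3 lists held 14 of them, or 38.9%, against 25.8% of 168512 merged regions in the genome. No region was held by both EXT lists and not by RC replicate 3. That is 0 of 36, against 4.34% of regions in the genome. The regions are few and not independent, with 13 at Slc17a7 and 8 at Slc30a3, so no limit on the share is given. A share at the genome's level could not have been told from none. RC replicate 3 alone held 3 regions (8.33%, against 10.7% in the genome), at the 5′ end of Gad1, just past the Gad2 start and downstream of Slc30a3, with folds of 2.19, 3.47 and 2.69. EXT replicate 2 alone held 10 (27.8%, against 29.2%) and EXT replicate 1 alone 3 (8.33%, against 9.38%). RC replicate 3 shared 4 regions with EXT replicate 2 only (11.1%, against 13.4%) and 2 with EXT replicate 1 only (5.56%, against 7.14%).

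Several of these peaks were narrow and had the same bounds in separate libraries. Of the regions held by more than 1 list, 5 had identical start and end wherever they were called, 2 of these in all 3 lists, at the Slc17a6 start and inside Gad1. The others were the intragenic peaks of Slc17a6, Slc32a1 and Gad2 held by 2 lists. All 5 were 150 to 163 bp wide, close to the 150 bp to which tags were extended. Such narrow peaks were common: 38.2% of all peaks in EXT replicate 1, 31.2% in EXT replicate 2 and 40.8% in RC replicate 3. At the 7 genes the shares were 40.0%, 32.1% and 52.0%. In the whole lists, 15.3% of RC replicate 3 peaks had the bounds of an EXT replicate 1 peak and 14.2% those of an EXT replicate 2 peak, while 7.56% of EXT replicate 1 peaks had those of an EXT replicate 2 peak. For peaks at the 7 genes these shares were 6 of 25 (24%), 4 of 25 (16%) and 2 of 20 (10%). In each list 160 bp was the most common width. Duplicate tags had been kept when peaks were called, and their part in these peaks was not tested.

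Genes that supply, take up or break down the same transmitters form the first comparison list. Of 20 such genes, 14 had a strand in the promoter table, and 9 had a peak at the 5′ end in EXT replicate 1, 9 in EXT replicate 2 and 10 in RC replicate 3, with 8 in all 3 and 4 in none. As shares these were 64.3%, 64.3% and 71.4%, beside 50.0%, 56.4% and 52.0% of all protein-coding genes. Those with the highest mean percentile were Got1, an aspartate aminotransferase, with folds of 7.70, 12.1 and 8.52, Aldh5a1, which oxidises succinic semialdehyde in GABA breakdown, with folds of 10.5, 7.97 and 11.1, and Glud1, glutamate dehydrogenase, with folds of 6.54, 6.54 and 8.73. The glial glutamate transporter gene Slc1a3, the glutamine transporter gene Slc38a5 and the betaine and GABA transporter gene Slc6a12 had no peak there in any of the 3 lists. Slc1a2, another glial glutamate transporter gene, was called there in all 3 lists, with folds of 3.17, 4.70 and 3.55. The GABA transporter gene Slc6a11 was called in EXT replicate 2 and RC replicate 3, with folds of 7.35 and 3.51.

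Of 10 genes for vesicle proteins that work beside the transporters, the 7 with a strand all had a 5′ peak in every list. Of all protein-coding genes, 46.3% had one in all 3 lists. Counted within 1 kb of either end of the span, which needs no strand, 9, 10 and 9 of all 10 were called. By that count 8 were called in all 3 lists. Of all protein-coding genes, 53.3%, 61.1% and 56.1% were called by it in EXT replicate 1, EXT replicate 2 and RC replicate 3. Atp6v0a1, a subunit of the proton pump that powers vesicle filling, had percentiles of 91.0 in EXT replicate 1, 90.8 in EXT replicate 2 and 93.2 in RC replicate 3. Clcn3, a chloride and proton exchanger, had 84.5, 96.7 and 93.3, and Slc17a5, the lysosomal sialic acid transporter, had 78.4, 87.0 and 84.0. Of 18 genes of other transmitters, 14 had a strand, and 5, 4 and 3 had a 5′ peak in the 3 lists, with Maoa, Slc6a9 and Slc6a3 in all 3. As shares these were 35.7%, 28.6% and 21.4%, beside 50.0%, 56.4% and 52.0% of all protein-coding genes. Chat, Dbh and Ddc, the genes of acetylcholine, noradrenaline and monoamine synthesis, were among 8 with none. Slc6a3, the dopamine transporter gene, had folds of 6.12, 3.91 and 4.62. In percentiles over the 3 libraries, the listed gene most like Slc17a6 was Atp6v1a, another pump subunit, at a mean difference of 5.59 points, and the one most like Slc17a7 was Sv2a, a synaptic vesicle protein, at 12.1 points. With any listed start allowed, Slc1a6, a neuronal glutamate transporter gene, was nearer to Slc17a7, at 11.4 points.

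Markers of the cells present, counted at either end of the span because not every gene had a strand, gave 7, 8 and 6 of 8 neuronal genes in EXT replicate 1, EXT replicate 2 and RC replicate 3. Excitatory neuron genes other than the members gave 5, 7 and 6 of 8, and inhibitory neuron genes 4, 7 and 4 of 10. By the same count 1 of 5 astrocyte genes was called in each list, 2, 4 and 2 of 6 oligodendrocyte genes, 2, 1 and 1 of 5 microglia genes and 1, 2 and 2 of 4 endothelial genes. Called in all 3 lists were Gfap of the astrocyte genes, Sox10 and Olig1 of the oligodendrocyte genes, Spi1 of the microglia genes and Cldn5 of the endothelial genes. Gfap had no peak at its 5′ end or a listed start in any list, so its call was at its 3′ end. At the 5′ end, 0 of the 4 astrocyte genes with a strand were called in each list. Of the 5 neuronal genes with a strand, 4 were called there in all 3 lists. Rbfox3, the gene of NeuN, was called there in EXT replicate 2 alone, with a fold of 2.16 at the 1.05th percentile. Sox10, Olig1 and Spi1 had no strand, so which end was called cannot be told. The 5′ peak of Cldn5 had folds of 11.7, 8.18 and 12.1. Among those called at neither end in any list were Aqp4, Gja1, Aldh1l1 and Slc1a3 (astrocyte), Mog (oligodendrocyte), Cx3cr1, P2ry12 and Tmem119 (microglia) and Pecam1 and Flt1 (endothelial). The part of such cells in the peaks at the 7 genes was not tested. By this either-end count, which takes in 3′ ends such as the Gad2 peak, 2, 0 and 2 of the 3 GABA-side genes and 2, 2 and 2 of the 4 glutamate-side genes were called, against 53.3%, 61.1% and 56.1% of 21887 protein-coding genes.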

How the data were processed

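The data are the peak lists of 3 ATAC-seq libraries; the lncRNA capture libraries, EXT replicate 3 and, beyond a check of their extent, RC replicates 1 and 2 were not used here. The replicates are pools of mice. Groups follow the sample titles, also for EXT replicate 2, whose file carries another number. Per the submitters' processing notes the build was mm10. The ATAC-seq aligner is not named by any source used here. Peaks were called by the authors, per the file headers, library by library with MACS 2.2.4, without a control, with a tag shift of -75 bp, an extension to 150 bp, duplicates kept and a q-value cutoff of 0.05. The deposited pileup is a coverage signal in tags at the summit, the deposited fold is its ratio to that library's local background, and the deposited −log10 q value rests on the same background; all are the authors' own and were used only within a list. The deposited width is in bp.

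The local background was read back as (pileup + 1) / fold − 1; its lowest value in each list equals 150 times the tags divided by the effective genome size in the headers. Gene spans came from RefSeq GRCm38.p6, and strand and starts from its promoter table, which covers 17492 of 21887 protein-coding genes. Peaks overlapping a span plus 10 kb by at least 1 bp were classed as promoter (1 kb either side of the 5′ end), intragenic or flanking. Percentiles rank fold within a list. Overlap and merging were checked on simulated peaks. Named were all members, their promoter peaks, the strongest intragenic and flanking peaks, and, of 3 comparison lists, up to 3 genes called in every list with the highest mean percentile and up to 3 called in none. Other peaks and motifs were chosen after their values were seen. Members and lists were chosen with earlier results of these data known. Counting at any listed start was added after the data were seen. No interval was computed for single peaks. Python 3.11.15, pandas 2.3.3 and matplotlib 3.10.9 were used.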

Additional observations from a re-analysis of the deposited data

How the results depend on the processing

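Of 48 counts recomputed under other settings, 45 stayed within 1.5 times the value given. A fall from 3 to 2 members passes this limit, so it says little about such small counts. The count of members with a peak at a start was 4 in EXT replicate 1 and 4 in EXT replicate 2 when any listed start was allowed, against 2 in each at the 5′ end of the span. In RC replicate 3 it was 4 against 3, with Gad1 lost and Slc17a8 and Slc30a3 gained. With flanks of 20 kb, 1 region was held by both EXT lists and not RC replicate 3, and the EXT mean less RC replicate 3 was 0.5 peaks, against -1 with 10 kb. That difference ranged from -5 to 3 when an EXT library was left out, with its sign turned at 3, without EXT replicate 1. It was -2.5 with flanks of 5 kb, -2 with lists of equal length and -1.5 at a −log10 q of at least 5. The Gad1 peak of RC replicate 3 was lost at a −log10 q of at least 5, with a promoter window of 500 bp and with lists of equal length, each of which left 2 members called there against 3. No paired analysis was possible, since the complete lists share no replicate number between groups and no label ties a number to a shared batch. With 1 RC library, no result separates extinction training from a single pool of mice.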
